A study of Drosophila melanogaster with 7 samples.

Results

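The genes described here encode the proteins of the mitochondrial ribosome of Drosophila melanogaster. They were taken as every probe whose current symbol is mRpL or mRpS followed by a number, or bonsai, which gave 69 genes among the 11609 genes named on the arrays. Of the 69, 43 belong to the large subunit and 26 to the small subunit (25 mRpS genes and bonsai, the homologue of ribosomal protein S15), and each was read by 1 probe. A further 5 genes with such symbols (mRpL14, mRpL34, mRpL47, mRpL53 and mRpS21) and tko, which encodes the S12 protein, had no probe that names 1 gene and were not analysed here.

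RNA of salivary glands from crawling larvae of the third instar was compared on 7 two-colour arrays. On every array a sample with cleaved Rad21, the subunit that closes the cohesin ring, was set against a sample with intact Rad21. The cleaved sample was w1118; hs-TEV/+; Rad21ex15 Rad21(TEV)/Rad21ex3, so that its Rad21 carried sites for the TEV protease. The intact sample was w1118; hs-TEV/+; genomic Rad21/Rad21ex3 on 3 arrays (1.1, 1.2 and 1.3, the genomic control) and w1118; hs-TEV/+; Rad21ex3 tgRad21/Rad21ex3 on 4 arrays (2.1 to 2.4, the transgenic control). Both samples of every pair therefore carried the heat-inducible protease and the Rad21ex3 allele, and both received the same heat shock (45 min at 37 °C) and a recovery of 10 to 12 h at room temperature. Cleaved and intact samples also came from different fly stocks, and the effects of stock and cleavage cannot be told apart. The cleaved sample was in the Cy5 channel on arrays 1.1, 1.2, 2.1 and 2.2 and in the Cy3 channel on arrays 1.3, 2.3 and 2.4.

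Every value is the authors' log ratio of the 2 channels, read as log2, and its sign is given as deposited. A negative value is likely a lower transcript level after cleavage of Rad21. This reading rests on EcR, the ecdysone receptor gene, whose transcript other work on cohesin loss has found lowered and whose log2 ratio here was −1.77 ± 0.17 (SE) and below 0 on 7 of 7 arrays (limma adjusted p = 0.0011). The log ratios hold no transcript levels, so the tissue label could not be checked against the level of its markers. They also cannot separate fewer cells of a kind from less RNA in each cell. Across arrays the median of all 13521 features (gene means plus probes without 1 gene symbol) lay between −0.22 and 0.25.

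Mitochondria keep their own ribosome, which makes only the few membrane proteins of the respiratory chain that mitochondrial DNA encodes. All of its proteins are encoded in the nucleus, made in the cytosol and imported. Part of them descend from bacterial ribosomal proteins, and the others were added in the course of mitochondrial evolution. The large subunit joins amino acids and holds the exit tunnel, while the small subunit binds the messenger and decodes it.

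The fitted log2 ratios of the mitochondrial ribosomal genes were mostly small and more often negative than those of all features, although not on array 2.4 taken alone. The median fitted log2 ratio over the 69 genes was −0.22, against 0.02 over all features. Fitted values lay below 0 for 52 of 69 genes (75.4%), against 47% of all features. In the large subunit 38 of 43 genes were below 0 (88.4%, median −0.25), and in the small subunit 14 of 26 were (53.8%, median −0.03). The small-subunit median moved with single arrays, from −0.0035 without array 1.2 to −0.099 without array 1.3 and −0.119 without array 2.3, and it was −0.129 with array weights. On the genomic-control arrays alone it was −0.229, beside −0.224 for the large subunit. The quartiles of the 69 fitted values were −0.36 and −0.03.

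Only 3 of the 69 genes passed the test of the fit across all features (limma with Benjamini-Hochberg adjustment, adjusted p under 0.05), all with negative values. These were mRpS33 of the small subunit and mRpL36 and mRpL46 of the large subunit. As a share, 4.35% of the genes passed on the negative side, where 3.88% of all features did, so the number of calls was near that of the array. On the positive side 0 of the 69 passed, where 4.25% of all features did. Without adjustment, 15 genes were negative at p under 0.05 (21.7%, against 9.57% of all features), 8 of them large-subunit and 7 small-subunit genes. The 1 gene that was positive at that level (1.45%, against 10.6% of all features) was mRpS34.

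**Figure D1:**
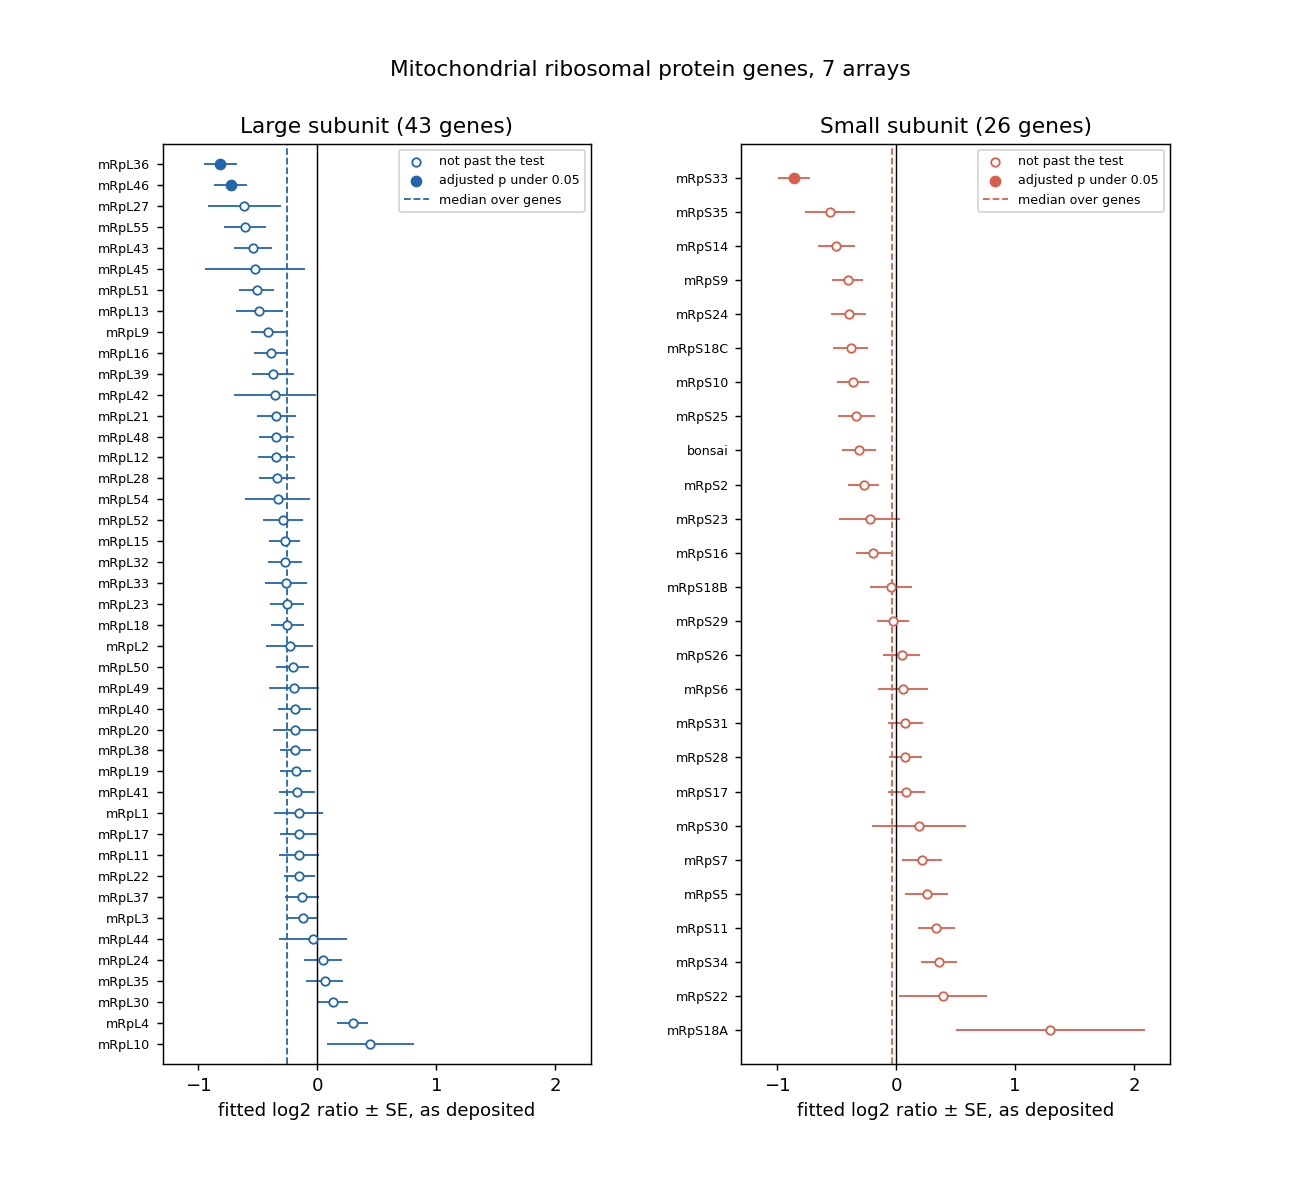
Fitted log2 ratio of every mitochondrial ribosomal protein gene over 7 arrays, with its standard error as a horizontal bar, for the 43 large-subunit genes (left) and the 26 small-subunit genes (right). Filled points passed the test, and dashed lines mark the median of each subunit, −0.25 for the large and −0.03 for the small.

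mRpS33 encodes a protein of the small subunit's head that has no bacterial counterpart. Its log2 ratios were −0.77, −0.76 and −0.79 on the genomic-control arrays and −1.2, −1.05, −0.95 and −0.54 on the transgenic-control arrays 2.1 to 2.4. All 7 values were negative, the 3 genomic-control values lay close together, and the transgenic-control values lay on both sides of them. The fitted value was −0.85 ± 0.13 (SE, n = 7 arrays; limma adjusted p = 0.0085), a ratio of 0.553 on the linear scale.

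mRpL36 encodes the homologue of bacterial L36, a small zinc-binding protein of the large subunit. It read −0.45, −0.47 and −1.04 on the genomic-control arrays and −1.06, −0.81, −0.92 and −0.84 on the transgenic-control arrays. Arrays 1.1 and 1.2 were the least negative, and array 1.3 lay among the transgenic-control arrays. The fitted value was −0.81 ± 0.14 (SE, n = 7 arrays; limma adjusted p = 0.011), a linear ratio of 0.57.

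mRpL46 encodes a mitochondria-specific protein of the central protuberance, the crest of the large subunit that faces the head of the small subunit. Its values were −0.68, −1.01 and −0.54 against the genomic control and −0.98, −1.39, −0.38 and −0.41 against the transgenic control. All 4 arrays with the cleaved sample in Cy5 were more negative than the 3 with it in Cy3, and the control types overlapped. The fitted value was −0.73 ± 0.14 (SE, n = 7 arrays; limma adjusted p = 0.017), a linear ratio of 0.604. This call was lost without array 1.2 (adjusted p = 0.066), without array 1.3 (0.051) and without array 2.4 (0.061), while mRpS33 and mRpL36 passed without any 1 array.

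**Figure D2:**
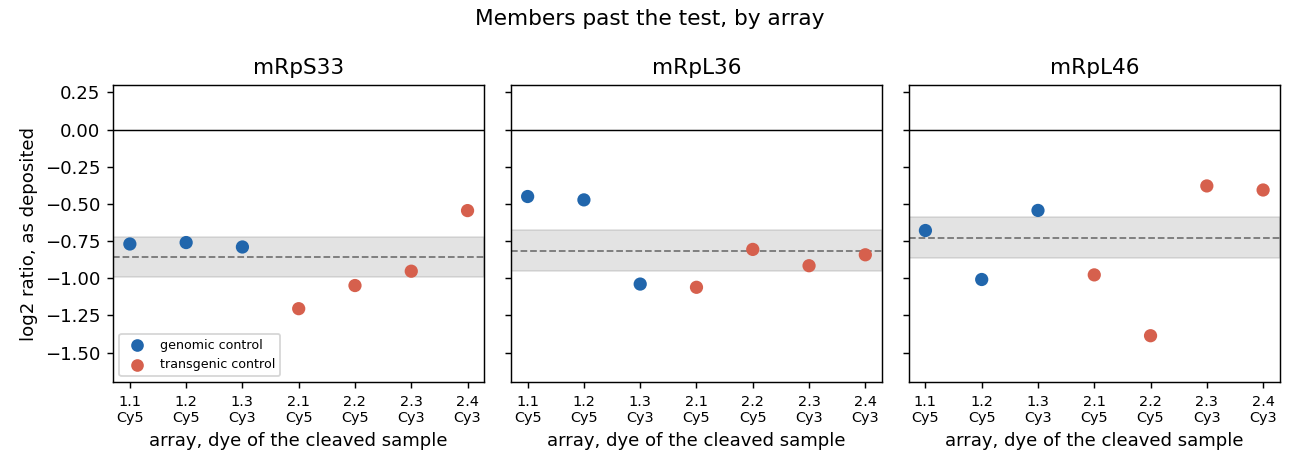
Log2 ratio of mRpS33, mRpL36 and mRpL46 on each of the 7 arrays, labelled with the dye of the cleaved sample and coloured by control type. The dashed line and grey band are the fitted value and its standard error, and all 21 points lie below 0.

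A single sign on all arrays was found for 6 genes, each time negative (8.7%, against 5.51% of all features negative on all 7 arrays). None of the genes was positive on all 7 arrays, where 6.36% of all features were. Besides the 3 that passed the test these were mRpL55, mRpL51 and mRpL9, so 5 of the 6 belong to the large subunit. mRpL55 is the mitochondrial form of bacterial L31 in the central protuberance, mRpL51 is mitochondria-specific, and mRpL9 is the homologue of bacterial L9. mRpL55 ranged from −1.53 on array 2.1 to −0.02 on array 2.3 (fitted −0.61 ± 0.18, SE, limma adjusted p = 0.081). mRpL51 ranged from −1.11 on array 2.2 to −0.04 on array 2.4 (−0.51 ± 0.15, adjusted p = 0.080), and mRpL9 from −0.84 on array 1.2 to −0.09 on array 1.1 (−0.41 ± 0.15, adjusted p = 0.146). None of these 3 passed the adjusted test, and in each the value nearest 0 was within 0.1 of it.

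The other large-subunit genes with strongly negative fitted values were of 2 kinds, those that were moderate on most arrays and those that rested on 1 or 2 arrays. mRpL43, a mitochondria-specific protein, was of the first kind, with −0.48, −0.72, 0.12, −0.96, −1.16, −0.74 and −0.14 on arrays 1.1 to 2.4 in order (fitted −0.54 ± 0.16, SE, adjusted p = 0.084). mRpL27, the homologue of the bacterial L27 that lies near the peptidyl transferase centre, read −2.68 on array 2.2 and between −0.62 and 0.10 on the other arrays (fitted −0.61 ± 0.31). mRpL45, which lies at the tunnel exit and is related to a protein of the import machinery, read −2.97 on array 2.1, −1.36 on array 2.4 and between −0.20 and 0.35 elsewhere (fitted −0.52 ± 0.42).

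At the other end of the large subunit, 5 of 43 genes had fitted values above 0. mRpL4, the homologue of bacterial L4 that lines the exit tunnel, was the steadiest of them, with 0.38, 0.01, 0.18, 0.34, −0.02, 0.59 and 0.47 on arrays 1.1 to 2.4 (0.30 ± 0.13, SE). mRpL10, the base of the stalk that recruits translation factors, had a fitted value of 0.45 ± 0.36 that came from a reading of 2.85 on array 1.3. mRpL30 and mRpL35, both homologues of bacterial proteins, were at 0.13 and 0.06. For mRpL30 this fitted value lies between readings of opposite sign. It was below 0 on all 4 arrays with the cleaved sample in Cy5 (mean −0.57) and above 0 on all 3 in Cy3 (mean 0.82). None of these genes passed the test, and mRpL35 changed sign under 2 other settings and without array 2.2 or 2.3.

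Among the small-subunit genes the fitted values spread to both sides of 0. Next after mRpS33 on the negative side came mRpS35, another mitochondria-specific head protein, which read −0.18, −0.76, −0.15, −1.06, −1.41, −0.96 and 0.33 (−0.56 ± 0.21, SE, adjusted p = 0.173). mRpS14, mRpS9, mRpS24 and mRpS18C, all with bacterial homologues, followed with fitted values of −0.50, −0.41, −0.40 and −0.38, each negative on 6 of 7 arrays. bonsai, whose loss in flies is known to lower mitochondrial translation, read −0.26, −0.85, −0.07, −0.34, −0.85, −0.16 and 0.09 (−0.31 ± 0.14). It was thus negative on 6 arrays without passing the test.

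On the positive side of the small subunit stood mRpS18A, mRpS22, mRpS34 and mRpS11, and again none passed. mRpS34, a mitochondria-specific protein of the body, was positive on 6 of 7 arrays, with 0.27, −0.28, 0.17, 0.26, 0.14, 0.95 and 0.75 (0.36 ± 0.15, SE, adjusted p = 0.236). mRpS11, the homologue of bacterial S11, read from −0.48 on array 2.2 to 1.38 on array 2.4 (0.34 ± 0.16). Its mean was −0.18 on the arrays with the cleaved sample in Cy5 and 0.85 on those with it in Cy3. mRpS22, which is mitochondria-specific, owed its fitted value of 0.39 ± 0.37 to 2.87 on array 1.3.

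Flies have 3 genes related to the bacterial S18 protein, and they did not read alike. mRpS18A read 0.09, −0.00, 3.15, 6.07, 0.35, −0.57 and 0.31 on arrays 1.1 to 2.4, with the largest spread of all 69 genes (SD 2.4, fitted 1.29 ± 0.79). Its fitted value rested on arrays 1.3 and 2.1, and the other 5 arrays lay between −0.57 and 0.35. mRpS18B was negative on the 3 genomic-control arrays (−0.70, −0.26 and −0.18) and read 0.08, 0.52, 0.32 and −0.13 on the transgenic-control arrays (fitted −0.04). mRpS18C read −0.57, −0.56, −0.36, −1.02, −0.78, 0.30 and −0.04 (−0.38 ± 0.14). In mammalian structures the S18A protein sits in the large subunit, as does the mRpS30 protein, although their symbols name the small one.

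mRpL3, the homologue of the bacterial L3 that reaches towards the peptidyl transferase centre, varied least, with values between −0.26 and 0.10 (SD 0.14, fitted −0.12). The median SD over arrays was 0.41 for the 69 genes and 0.57 for all features. The next smallest spread, 0.19, belonged to mRpL38 of the central protuberance.

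**Figure D3:**
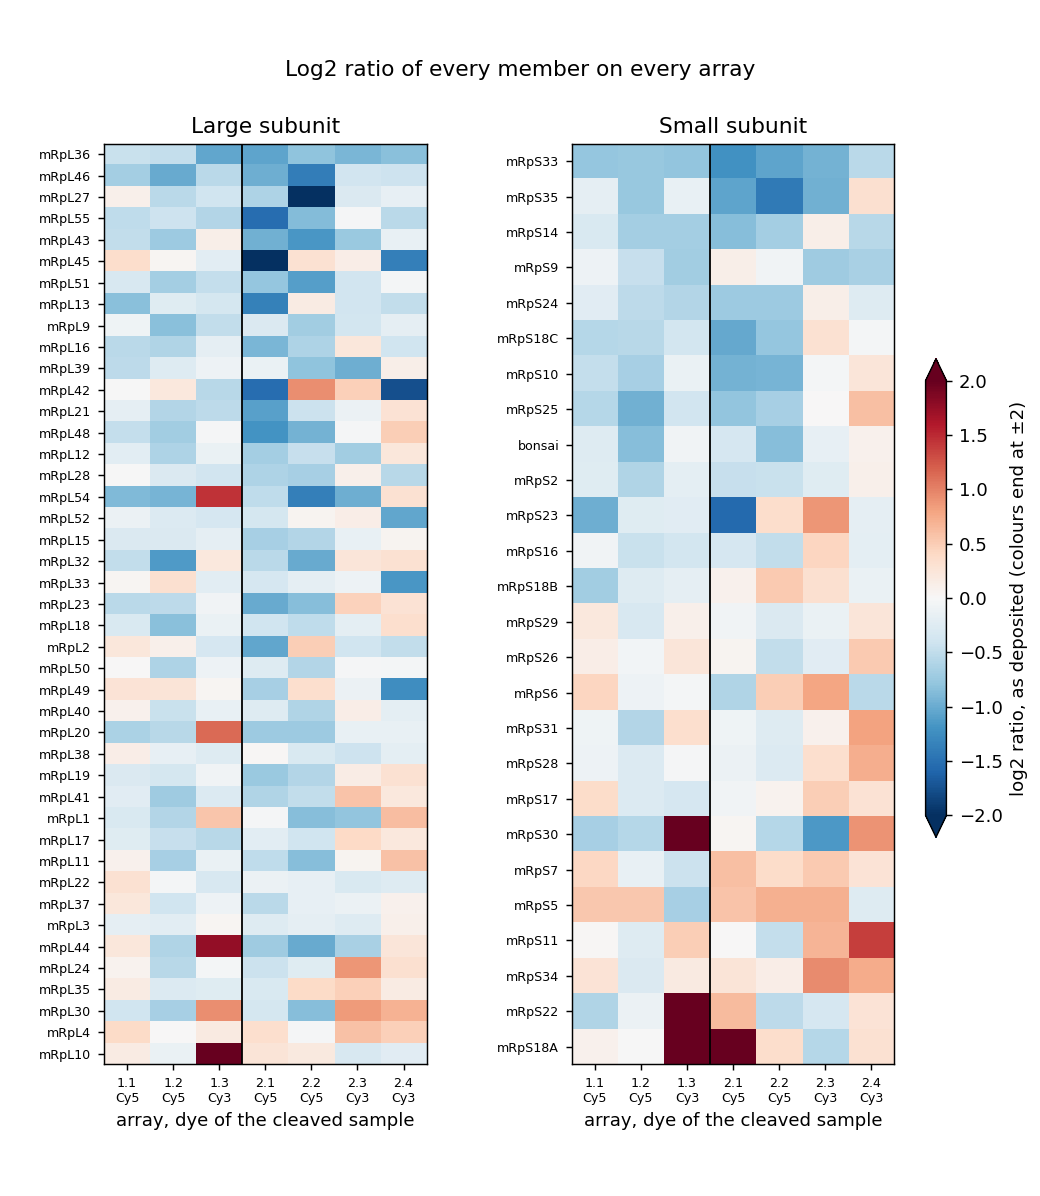
Log2 ratio of every mitochondrial ribosomal protein gene (rows, ordered by fitted value within each subunit) on every array (columns, with the dye of the cleaved sample), on a colour scale that ends at 2 in either direction. The vertical line separates the 3 genomic-control from the 4 transgenic-control arrays, and the dark red cells of array 1.3 and array 2.1 are single genes.

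The genes were grouped by the origin of their proteins and, separately, by structural region of the ribosome. The 16 mitochondria-specific proteins of the large subunit all had fitted values below 0 (median −0.31), and so did 22 of the 27 with a bacterial homologue (median −0.25). In the small subunit 5 of 10 mitochondria-specific genes (median 0.01) and 9 of 16 with a bacterial homologue (median −0.12) were below 0. All 7 genes of the central protuberance (mRpL18, mRpL27, mRpL38, mRpL40, mRpL46, mRpL48 and mRpL55) were below 0, with a median of −0.34, against 6 of the 7 at the tunnel exit (median −0.16) and 2 of the 3 of the stalk (median −0.16). Of the 8 genes of the small-subunit head, 6 were below 0 (median −0.39). These are descriptions of small groups, and nothing is drawn from them beyond the counts.

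By the RefSeq gene table the 69 genes are spread over 5 chromosome arms, with 19 on 3R, 17 on 3L, 12 on 2L, 11 on 2R and 10 on X. Their median fitted value lay between −0.25 and −0.19 on every arm.

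The large and small subunits were compared on each array as the mean log2 ratio over large-subunit genes minus that over small-subunit genes. This difference was −5.5e-05, −0.037 and −0.149 on the genomic-control arrays 1.1, 1.2 and 1.3, and −0.574, −0.211, −0.150 and −0.302 on the transgenic-control arrays 2.1 to 2.4. It was below 0 on 7 of 7 arrays, although on array 1.1 it was indistinguishable from 0, and its mean was −0.20 ± 0.19 (SD, n = 7). By medians over genes it was −0.18 ± 0.17 (SD, n = 7) and below 0 on 6 of 7 arrays. It is given without a p-value, because the split between subunits was chosen with these data already seen.

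By control type the difference was −0.06 ± 0.08 (SD, n = 3) for the genomic and −0.31 ± 0.19 (SD, n = 4) for the transgenic control. Array 2.1 held the largest difference, and without it the mean over the other arrays was −0.14. Whether the control types differ in it was not tested, and their nearest values were −0.149 on array 1.3 and −0.150 on array 2.3.

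The difference between subunits also moved with the assignment of a few genes. With mRpS30 and mRpS18A counted in the large subunit it was −0.09 ± 0.16 (SD, n = 7), below 0 on 6 of 7 arrays, and 0.21 on array 1.3. By control type this reassigned difference was 0.06 ± 0.13 (SD, n = 3) for the genomic and −0.20 ± 0.05 (SD, n = 4) for the transgenic control, so its sign turned for the genomic control. Taken by symbol, the difference was −0.14 and below 0 on 6 of 7 arrays without the 7 genes above 1 on array 1.3. Those 7 genes were left out by a choice made after seeing the data. Without the 3 genes that passed the test the difference by symbol was −0.21.

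**Figure D4:**
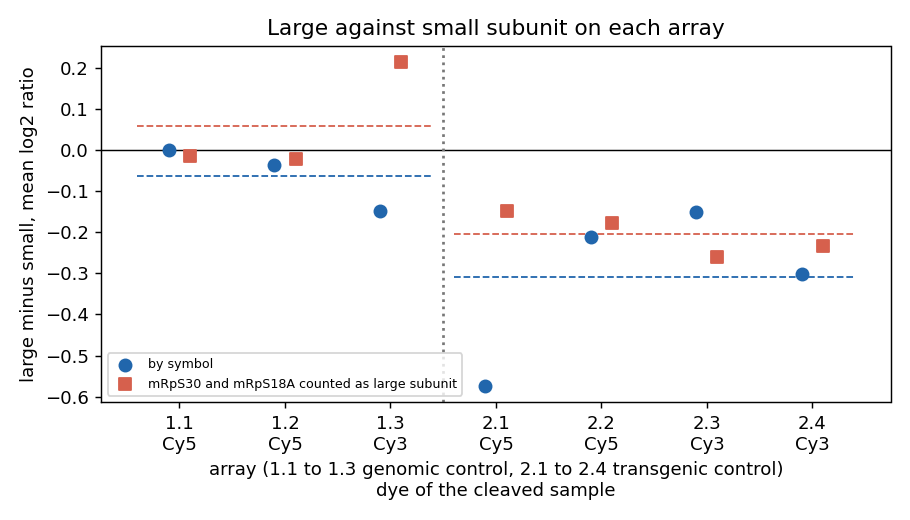
Mean log2 ratio over large-subunit genes minus that over small-subunit genes on each array, with subunits taken from the gene symbols (circles) or with mRpS30 and mRpS18A counted as large (squares); dashed lines are means within each control type. The circles lie between −0.574 and −5.5e-05, and the squares are above 0 on array 1.3 alone.

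The subunit medians varied from array to array. The median over large-subunit genes was −0.19, −0.47 and −0.16 on arrays 1.1 to 1.3 and −0.60, −0.58, −0.11 and −0.04 on arrays 2.1 to 2.4. For the small subunit it was −0.14, −0.38, −0.16, −0.11, −0.46, 0.10 and 0.24 in the same order. The large-subunit median was thus below 0 on every array, while the small-subunit median was above 0 on arrays 2.3 and 2.4. Of the 69 genes, 44, 62, 50, 56, 53, 38 and 32 were negative on arrays 1.1 to 2.4, against 55.3%, 44.3%, 43.8%, 61.0%, 44.5%, 37.9% and 59.5% of all features. The share of negative genes was above that of all features on the other 6 arrays, but on array 2.4 it was below (46.4%), and there the median of the 69 genes lay 0.236 above that of all features.

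The dye of the cleaved sample moved with these values. Over the 4 arrays with the cleaved sample in Cy5 the mean of the array medians of the 69 genes was −0.41 ± 0.15 (SD), and over the 3 with it in Cy3 it was −0.03 ± 0.12 (SD). For the large subunit the means were −0.46 and −0.10, for the small subunit −0.27 and 0.06, and for all features −0.03 and 0.06. A lower mean on the Cy5 arrays was found for 57 of the 69 genes (82.6%), against 59.2% of all features. The dye term of the fit, which adjusts each gene's value for this, passed its own test for 0 features, and its part in the medians was not tested. The mean difference between subunits was −0.21 ± 0.26 (SD, n = 4) in Cy5 and −0.20 ± 0.09 (SD, n = 3) in Cy3. The Cy5 values ran from −0.574 on array 2.1 to −5.5e-05, and the Cy3 values from −0.302 to −0.149. The near-equal means thus hide an unequal spread, and whether the difference moved with dye was not tested.

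**Figure D5:**
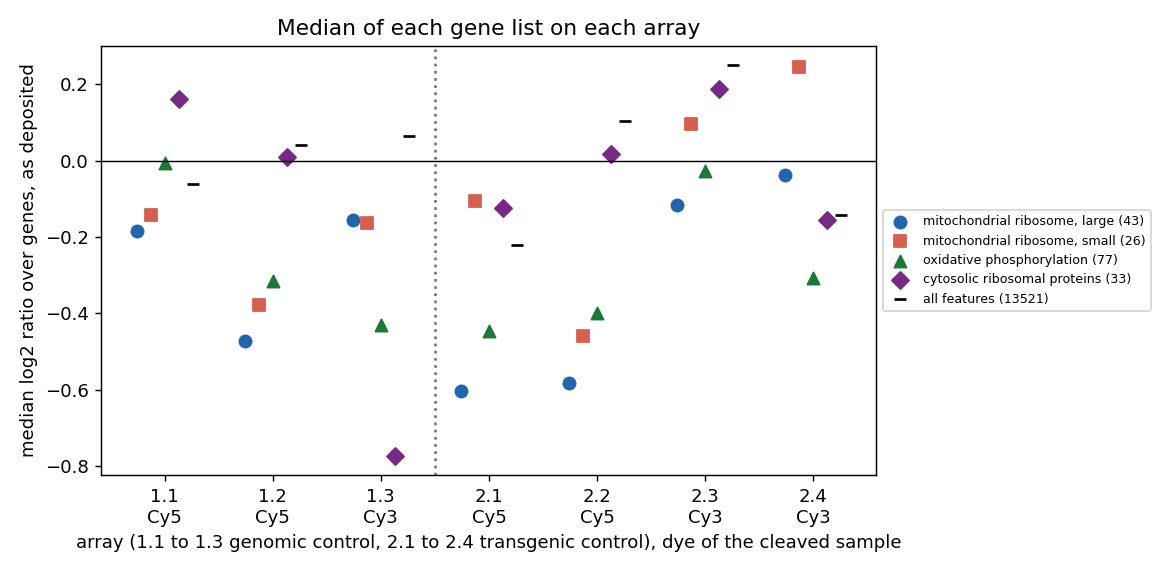
Median log2 ratio on each array of the large and small mitochondrial ribosomal subunits, the oxidative phosphorylation genes, the cytosolic ribosomal proteins and all features. The large-subunit median is below 0 on every array, near 0 on arrays 2.3 and 2.4, and lowest on array 2.1 at −0.60.

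The comparison between control types asked whether the choice of intact sample altered the genes' values. In the test of the difference (transgenic minus genomic effect, limma adjusted p under 0.05), 0 of the 69 genes and 0% of all features passed. The lowest adjusted p among the genes was 0.9997. At an unadjusted limma p under 0.05 there were 587 of 13521 features and 1 of the 69 genes, mRpL44. That share of the 69 genes was smaller than the share of all features. mRpL44, a protein related to RNase III enzymes, read 0.22, −0.60 and 1.76 on the genomic-control and −0.72, −1.0, −0.65 and 0.23 on the transgenic-control arrays, a difference of −1.19 ± 0.44 (SE). The groups overlapped, and the high genomic-control mean came from array 1.3.

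The next most negative differences were those of mRpL10 (−1.12 ± 0.67, SE) and mRpL45 (−1.08 ± 0.81). The most positive were mRpS18A (0.59 ± 1.69), mRpS18B (0.58 ± 0.32) and mRpS7 (0.55 ± 0.31). mRpS7, the homologue of the bacterial S7 that organises the head, read 0.42, −0.15 and −0.44 on the genomic-control and 0.60, 0.37, 0.52 and 0.28 on the transgenic-control arrays. Only for mRpS18B did the values of the control types not overlap (1.45% of the 69 genes, against 4.02% of all features).

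Array 1.3 held most of the high single values of the 69 genes, but not the largest share of high values over all features. The share of all features above 1 was 4.5%, 3.2% and 13.9% on arrays 1.1 to 1.3. On arrays 2.1 to 2.4 it was 8.0%, 10.2%, 16.9% and 6.2%. On array 1.3 7 of the 69 genes were above 1, a smaller share than that of all features there. Arrays 2.1 and 2.4 had 1 such gene each and the other arrays 0. The 7 genes on array 1.3 were mRpS18A at 3.15, mRpS22 at 2.87, mRpL10 at 2.85, mRpS30 at 2.71, mRpL44 at 1.76, mRpL54 at 1.45 and mRpL20 at 1.13. Except for mRpS18A, no other array put any of them above 1. Without array 1.3 the fitted value of mRpL10 was −0.07, of mRpS22 −0.09, of mRpS30 −0.28, of mRpL44 −0.37, of mRpL20 −0.40, of mRpL54 −0.63 and of mRpS18A 0.75. On that array the share of probes above 1 rose with the number of digits in the probe identifier, from 7.95% of those with 14 digits to 38.8% of those with 17. The part of this in the 7 genes was not tested.

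Other genes of mitochondrial gene expression were read for comparison. Over all features, 3.88% passed the test on the negative side and 4.25% on the positive side. An unadjusted limma p under 0.05 was found for 20.1% of all features. Of 10 translation factor genes 9 were measured, and 0 passed limma's test, with or without adjustment (median fitted log2 ratio −0.01). Of 16 genes for mitochondrial aminoacyl-tRNA synthetases and Slimp, a seryl-tRNA synthetase-like protein of insect mitochondria, 11 were measured (median 0.18), 1 passing on each side. PheRS-m, which charges the mitochondrial tRNA for phenylalanine, read −0.88, −0.80, −1.11, −0.99, −1.07, −1.25 and −2.05 on arrays 1.1 to 2.4 (−1.2 ± 0.16, SE, limma adjusted p = 0.0038). It was more negative than any mitochondrial ribosomal gene's fitted value. Slimp was positive on all arrays, from 0.24 to 0.85 (0.67 ± 0.14, adjusted p = 0.025).

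Among 15 genes of mitochondrial transcription and RNA processing, 13 were measured, with a median of 0.11, and mldr passed on the positive side (0.59 ± 0.14, SE, limma adjusted p = 0.043). Of the cytosolic ribosomal proteins 33 of 86 were measured (median −0.14), and 0 passed the adjusted limma test. At an unadjusted limma p under 0.05 there were 3 of the 33, where 20.1% of all features were.

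Genes of oxidative phosphorylation, taken by symbol, had a median close to that of the large subunit. All of their complexes except complex II also hold subunits made by the mitochondrial ribosome, and the symbols include related copies and the assembly factor Sdhaf3. Of 98 such genes 77 were measured, with a median of −0.25 and 61 below 0. On the negative side 9 passed the test, where 3.88% of all features did. On the positive side 0 passed, where 4.25% of all features did. At an unadjusted limma p under 0.05 in either direction there were 25 of the 77, where 20.1% of all features were. The 9 were 6 subunits of complex I (ND-13A, ND-18, ND-19, ND-B17, ND-B18 and ND-PDSW), SdhD of complex II, UQCR-6.4 of complex III and ATPsynE of the ATP synthase, with fitted values from −0.82 to −0.61. Their array medians were −0.29 on average in the Cy5 and −0.26 in the Cy3 orientation, a smaller gap than that of the mitochondrial ribosomal genes. Whether the 2 lists differ in this was not tested.

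Markers of the gland and of other tissues were read on the same arrays. Of 5 salivary gland markers all 5 had fitted values below 0 (median −1.06), and Sgs1 (−6.21) and sage (−1.13) passed the test. The fitted value of fkh was near 0 (−0.01 ± 0.25, SE), and fkh was negative on 4 of 7 arrays. Sgs4 (−0.48) was negative on 5 arrays and Sgs5 (−1.06) on 7, and neither passed. Over all features 3.88% passed on the negative and 4.25% on the positive side. Of markers of other tissues, 1 of 5 fat body genes passed (Apoltp, 0.91), while 3 of the 5 had fitted values below 0 (list median −0.16). The largest of the 5 in size was that of Fbp1 (−1.10 ± 0.33, SE, limma adjusted p = 0.085). Fbp1 was negative on 6 arrays and did not pass. None passed of the 3 hemocyte (median 0.06), 2 muscle (−0.27), 4 gut (−0.21) or 3 dividing-cell genes (−0.13) measured, with or without adjustment. The part of such shifts in the values of the mitochondrial ribosomal genes was not tested.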

How the data were processed

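The authors deposited 1 log ratio per probe and array for 14569 probes, read here as log2 values. Log base, background correction, normalization and filters are not stated in the labels or files used. Base 2 is an assumption: 2 values exceed the natural log of the highest 16-bit intensity, and another base would change sizes but not signs or tests. All ratios were read as running in one direction, since arrays of opposite dye orientation correlated above 0 (Pearson's r 0.011 to 0.481 across probes, median 0.270, 12 pairs). The 9 pairs of like orientation ran from −0.041 (arrays 1.3 and 2.3) to 0.587 across probes, median 0.394. Across the 69 genes alone the pairs of opposite orientation ran from −0.375 to 0.535, with 5 of 12 below 0. There the 9 pairs of like orientation ran from −0.243 to 0.718, with 1 below 0. The numerator is not stated. Dye orientation follows the channel labels, which the series' design text gives the other way round. Per the labels, RNA was extracted with TRIzol and labelled by Klenow extension; the design text describes 7 independent pairs. Spot intensities and backgrounds were not used here, so no probe could be checked against background, and precision rests on the number of arrays.

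Probes were named from the platform annotation, updated through the RefSeq gene table of Release 6: 12657 probes had 1 symbol, 96 several and 1816 none. Probes of 1 gene were averaged, and probes without 1 symbol were kept unnamed. Each of the 13521 features was fitted with limma 3.58.1 (lmFit, eBayes) in R 4.3.3, with an intercept and a dye term (5 residual degrees of freedom, 3.08 added by eBayes), and tested two-sided against 0 with Benjamini-Hochberg adjustment over all features. In total 1098 features passed. Control types were compared as a contrast of their separate effects, with the dye term kept. The main fit was also run on simulated data with independent normal noise and planted changes larger than those of the mitochondrial ribosomal genes that passed. Array-wide shifts, dye effects and single-array outliers were not simulated, and no result here rests on that run.

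The genes, lists and subunit split were chosen with earlier results of these data known, so lists are described by counts and medians without a p-value. Genes named were those past the test, the 6 most negative and 4 most positive of each subunit, those with 1 sign on all arrays, the largest and smallest SD, bonsai, and the 3 largest control-type differences in each direction; mRpL38, mRpS30 and the genes above 1 on array 1.3 were added after their values were seen. Promoter and protein sequences were not used here. Coordinates are left out because no source used here names the probes' genome build.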

Additional observations from a re-analysis of the deposited data

Results flagged for a closer look

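Of 60 sets of values examined, 4 held 1 array far from the nearest of the others by Dixon's ratio of that gap to the whole range. The sets were 27 named genes, both subunit medians and the difference between subunits, each over the 7 arrays and over the 4 transgenic-control arrays. Chance alone would flag about 1 in 20 independent sets, a rate that does not hold here. Some genes were named for extreme values, and the 4 arrays are part of the 7. mRpL10 read 2.85 on array 1.3. mRpS22 read 2.87 on array 1.3. mRpL27 read −2.68 on array 2.2. mRpS18A read 6.07 on array 2.1 among the 4 transgenic-control arrays, 1 of the 2 arrays on which it was high. None of the 4 genes passed the test over all arrays.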

How the results depend on the processing

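The 3 calls among the mitochondrial ribosomal genes became 5 with array weights (mRpS14 and mRpS9 joined), 8 on the genomic-control arrays alone, 0 on the transgenic-control arrays alone (limma; 5 at an unadjusted p under 0.05) and 1 (mRpS33) at an adjusted p under 0.01. Of the 8, 5 were positive (mRpL10, mRpL44, mRpS18A, mRpS22 and mRpS30); that fit has 1 residual degree of freedom and its dye term fits array 1.3, the lone Cy3 array, exactly. With each array left out in turn there were 2 to 4 calls. mRpL46 also lost its call when arrays were centred and scaled to 1 spread (adjusted p = 0.055), a setting under which mRpL55 passed (0.034). Over all features the 1098 calls became 371 at an adjusted p under 0.01 and 496 to 1084 with 1 array left out, falling by more than 1.5 times without array 2.4 (496), 1.2 (542), 2.1 (618) or 1.1 (696), where fewer arrays were fitted. Without the dye term 1 feature, no mitochondrial ribosomal gene, differed between control types. Signs changed for mRpL35 (−0.0099 with centring and scaling, −0.025 with array weights, −0.025 to 0.15 with 1 array left out), mRpL44 (0.034 with centring and scaling, 0.061 with a control-type term, 0.010 with array weights, −0.37 to 0.24 with 1 array left out), mRpL10 (−0.075 to 0.72), mRpS22 (−0.088 to 0.71) and mRpS18B (−0.14 to 0.060, all with 1 array left out); the cause was not tested. Of 27 named genes, 22 kept their sign under all 13 settings, which held no fit within 1 dye orientation or 1 control type. mRpL30 and mRpS11 are among the 22, although their means on the Cy5 and Cy3 arrays had opposite signs. The large-subunit median stayed below 0 under all settings tried (−0.48 to −0.09); the small-subunit median was above 0 only on the Cy3 arrays alone (0.07, against −0.22 on the Cy5 arrays). The alternative that adds tko was not run, since its probes name several genes. Each value is already the ratio of a cleaved and an intact sample, so the fit against 0 uses that pairing. No pairing of arrays between control types was possible, because the array numbers of the control types differ.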
